A study of Mus musculus with 36 samples.

Results

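The genes described here are 10 immediate early genes of the mouse, taken by symbol from the array's annotation: the AP-1 subunit genes Fos, Fosb, Jun and Junb, the transcription factor genes Egr1, Klf6 and Myc, the nuclear protein gene Ier2, and Dusp1 and Zfp36, whose products switch the response off. They were 10 of the 19057 genes named on the array and had 13 of its 45281 probes. RNA was read from 36 whole male embryos of the strain C57BL/6J, 1 array for each, collected 9.5 days post coitum. Their mothers drank by choice from 0.5 to 8.5 days post coitum: water in the Control group, 10% (v/v) ethanol in the Ethanol group, and 100 µg/ml of freebase nicotine in the Nicotine group, with 12 embryos each. The embryos were thus collected after the drinking period. The sample titles number the embryos of every group from 1 to 12, and nothing in the labels ties an embryo to a mother, so p-values measure the spread between these embryos.

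Immediate early genes are transcribed within minutes of a growth factor, depolarising or stress signal, from factors already present in the cell and with no need for new protein. MAP kinases and calcium signals reach them through serum response factor with its Elk partners, which bind the CArG box, and through CREB, which binds the cAMP response element, and most of their messenger RNAs decay quickly. Fos and Jun proteins pair to form AP-1, Dusp1 removes phosphate from MAP kinases, and Zfp36 (tristetraprolin) binds AU-rich messenger RNAs and speeds their decay. In the embryo, growth factor signals through the MAP kinase pathway are a known source of their expression.

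The upstream sequences of the 4 genes that made up the called pairs of replicates 1 to 6, described further on, are printed with the motifs in capitals. They are the 250 bases before the annotated transcription start, 5′ to 3′ on the gene's own strand, from RefSeq on the build GRCm38.p6.
Fos, chr12:85473640-85473889, plus strand: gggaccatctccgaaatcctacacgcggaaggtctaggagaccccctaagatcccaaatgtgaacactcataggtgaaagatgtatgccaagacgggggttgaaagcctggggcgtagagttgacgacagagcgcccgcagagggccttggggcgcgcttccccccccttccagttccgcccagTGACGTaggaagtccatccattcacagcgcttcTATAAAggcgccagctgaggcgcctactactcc
Dusp1, chr17:26508473-26508722, minus strand: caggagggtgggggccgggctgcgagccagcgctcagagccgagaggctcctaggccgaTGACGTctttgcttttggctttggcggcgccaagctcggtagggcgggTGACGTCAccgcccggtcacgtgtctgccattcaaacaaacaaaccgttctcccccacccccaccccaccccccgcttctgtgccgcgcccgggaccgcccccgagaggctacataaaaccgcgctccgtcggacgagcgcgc
Junb, chr8:84978749-84978998, minus strand: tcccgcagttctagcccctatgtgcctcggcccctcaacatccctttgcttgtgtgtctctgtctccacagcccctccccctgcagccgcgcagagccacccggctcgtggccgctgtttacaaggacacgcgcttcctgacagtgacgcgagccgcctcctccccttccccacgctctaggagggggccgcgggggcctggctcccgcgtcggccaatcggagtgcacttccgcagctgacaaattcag
Zfp36, chr7:28379229-28379478, minus strand: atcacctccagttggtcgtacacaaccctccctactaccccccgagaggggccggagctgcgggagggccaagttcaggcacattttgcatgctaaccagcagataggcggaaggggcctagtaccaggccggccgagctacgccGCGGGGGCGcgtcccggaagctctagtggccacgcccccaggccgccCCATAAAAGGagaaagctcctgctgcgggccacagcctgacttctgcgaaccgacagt
Capitals mark TGACGT, the core of the cAMP response element, in Fos and Dusp1, TATAAA in Fos, and GCGNGGGCG, an EGR site, and a CArG box in Zfp36. Motifs were searched on both strands, in 250 bases before to 50 after the start. The core TGACGT began 66 bases before the start of Fos, and 191, 143 and 141 bases before that of Dusp1, where the matches at 143 and 141 overlap on opposite strands. TATAAA began 33 bases before the start in Fos and at the start itself in Junb, just past the printed stretch. The CArG box of Zfp36 began 58 bases before its start and the EGR site 105 bases before. Promoters were matched for 7 of the 10 genes, without Egr1, Ier2 and Myc. Of these 7, TGACGT was in 2, against 7.51% of 32851 promoters, TATAAA in 2 (13.6%), GCGNGGGCG in 2, namely Zfp36 and Fosb (5.55%), the CArG box in 1 (1.63%), and the AP-1 site TGANTCA in 0 (7.81%). A match is a description of the letters in the window. Sequence outside the window was not searched, so a missing match does not mean that a gene lacks the site.

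The deposited values are fluorescence intensity on a linear scale. Every array had a mean of 357.7, and the array medians ran from 10.68 to 10.77. Over the 3 groups together, with treatment as a covariate, the embryos numbered 1 to 6 differed from those numbered 7 to 12 in 64.8% of the probes tested, and the labels do not say what the numbers stand for. The 2 sets were formed because earlier results of these data showed them apart, so that share is a description. The Y-linked genes Eif2s3y and Kdm5d were read in all groups and were lower in replicates 7 to 12, by 1.52 and 1.02 on the log2 scale, so their level moved with the set as well. Of 38 marker genes for 9 cell types or adjoining tissues, 35 had a probe and 22 passed the filter on low values, and 0 of the 22 were called between treatments (1 in each comparison had an unadjusted p under 0.05). For ethanol, nicotine and ethanol against nicotine, 0%, 0.00591% and 0% of all probes were called. The shares with an unadjusted p under 0.05 were 1.05%, 6.51% and 4.93%. The markers of primitive erythroid cells summed to 20723 to 31482 in Control, 26167 to 31017 in Ethanol and 25436 to 30597 in Nicotine. Nicotine replicate 3 stood apart, with summed heart markers (Myh6, Myl7 and Nkx2-5) at 48.9 where the next lowest embryo had 3023. Summed visceral yolk sac markers spanned 57.3 to 10184 in Control, 97.8 to 7970 in Ethanol and 68.3 to 14997 in Nicotine, and trophoblast markers 164 to 15700, 169 to 1450 and 276 to 2007. In whole embryos, fewer cells with a transcript and less transcript per cell cannot be told apart.

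Testing was limited to probes with an intensity of 32 or more in 12 or more embryos: 9 of the 13 probes, for 8 of the 10 genes, and 16927 probes in all. The tested probe with the highest mean stood for its gene. Fosb reached 32 in 2 of 36 embryos and Ier2 in 3, so neither was tested. Fosb had a median of 7.83 in Control (5.73 to 38.5), 11.3 in Ethanol (3.54 to 17.4) and 13.1 in Nicotine (5.87 to 37.5). Ier2 had a median of 13.4 in Control (6.36 to 43.9), 14.0 in Ethanol (9.03 to 28.9) and 24.4 in Nicotine (7.69 to 36.8). The groups of each overlapped throughout. Tested with no filter, Fosb and Ier2 differed by 0.20 (SE 0.14, adjusted p 0.965) and 0.18 (SE 0.15, adjusted p 0.983) after nicotine and by 0.00 and -0.02 after ethanol (limma). The further probe of Junb stayed between 4.17 and 15.7 and that of Myc between 2.18 and 8.25, both at 32 in 0 embryos. The dimmer of the Klf6 probes passed narrowly, with 13 embryos at 32 or more.

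**Figure D1:**
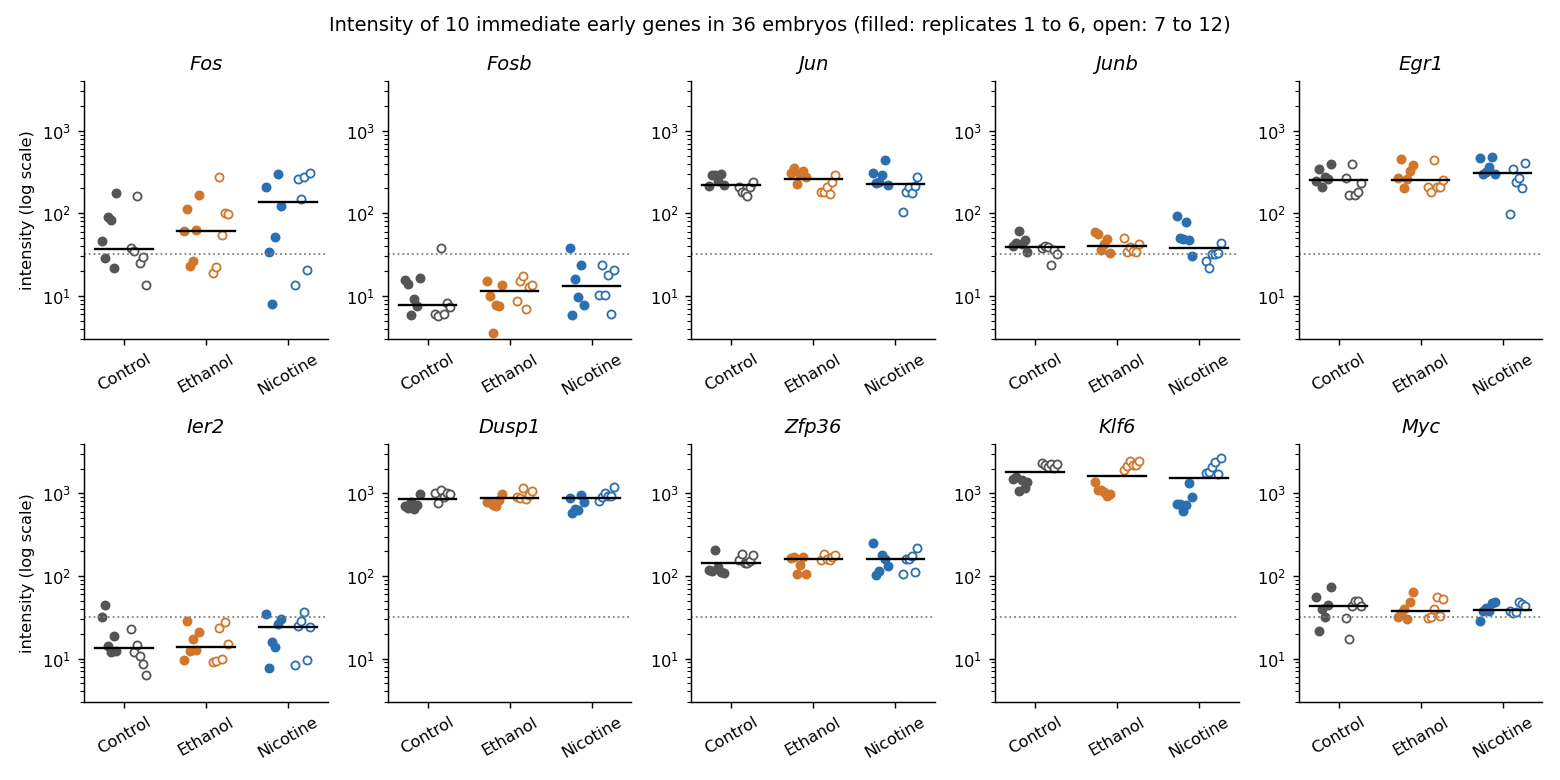
Intensity of the probe that stands for each of the 10 genes (log scale) in every embryo, by treatment, with filled points for replicates 1 to 6, open points for 7 to 12, a bar at each group's median and a dotted line at the intensity of 32 used in the filter. Fos spans 8.02 to 312 and its treatment groups overlap, Fosb and Ier2 lie mostly under the line, and the filled and open points of Klf6 do not overlap.

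The comparisons of ethanol and of nicotine with water ask whether the mothers' drinking left a difference in these genes at 9.5 days. In neither comparison, nor between ethanol and nicotine, was any of the 8 tested genes called. The counts were 0 of 8 for ethanol, where 0% of all probes were called, 0 of 8 for nicotine, where 0.00591% were, and 0 of 8 for ethanol against nicotine, where 0% were (limma, adjusted p under 0.05). At an unadjusted p under 0.05 the genes numbered 0 in each comparison, and the probes as a whole 177 (1.05%), 1102 (6.51%) and 834 (4.93%). The median difference over the 8 genes was 0.08 on the log2 scale after ethanol, with 7 above 0, and 0.04 after nicotine, with 6 above 0, beside 0.00 over all probes in each. These comparisons with Control share the Control embryos. With the replicate number as a block, 1.15% of probes were called for nicotine and 0.408% for ethanol against nicotine, and the 8 genes still gave 0 calls in every comparison, as they did with the set as a block, where 0.0177% of probes were called for nicotine. At an unadjusted p under 0.05 (limma), the replicate block gave 0 genes for ethanol and 1, Klf6, in each of the other comparisons. All probes under it then numbered 784 for ethanol, 3000 for nicotine and 2355 for ethanol against nicotine, of 16927.

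Fos showed the largest difference from Control among the 8 genes after nicotine. In Control its intensity ran from 13.6 through a median of 36.4 to 176. In Ethanol it ran from 19.2 through 61.3 to 277. In Nicotine it ran from 8.02 through 136 to 312. The groups overlapped, with 5 of the 12 Nicotine embryos above the highest Control embryo, 1 below the lowest and the others within the Control range. The log2 difference of the means was 0.78 (SE 0.44, 95% interval -0.11 to 1.67), a 1.72-fold difference on the log2(intensity + 16) scale, with an adjusted p of 0.844 (limma). Among embryos of equal number Nicotine was above Control in 6 of 12. After ethanol the difference was 0.33 (SE 0.44, interval -0.57 to 1.22), and 7 of 12 numbers were higher. Nicotine replicate 3, the embryo with few heart transcripts, had the lowest Fos of all, and without it the nicotine difference was 0.98 with an adjusted p of 0.759.

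The other AP-1 genes differed little. Jun, the most common partner of Fos, ran in Control from 161 through a median of 218 to 298. In Ethanol it ran from 169 through 258 to 352, and in Nicotine from 104 through 224 to 445. Its groups overlapped, with differences of 0.14 (SE 0.15) after ethanol and 0.03 (SE 0.15) after nicotine. Junb, an AP-1 subunit that activates transcription more weakly than Jun in many settings, had medians of 39.6 in Control (23.9 to 60.9), 40.7 in Ethanol (33.3 to 58.9) and 38.2 in Nicotine (21.6 to 92.1). The Junb groups overlapped, and the highest and the lowest embryo were both from Nicotine. Its differences were 0.07 after ethanol and 0.06 after nicotine (SE 0.13 each).

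Of the other transcription factor genes, Egr1, a zinc finger factor induced beside Fos in many cells, ran in Control from 165 through 253 to 394. It ran in Ethanol from 181 through 255 to 455, and in Nicotine from 98.7 through 310.0 to 484. The Egr1 groups overlapped, with 3 Nicotine embryos above and 1 below the Control range. Its difference was 0.22 after nicotine (SE 0.19, interval -0.16 to 0.61) and 0.10 after ethanol (SE 0.19). Myc, which drives growth and proliferation, had medians of 43.3 in Control (17.2 to 74.6), 37.4 in Ethanol (30.1 to 64.5) and 39.0 in Nicotine (28.6 to 48.2). Its differences were 0.00 after ethanol and after nicotine, with 95% intervals of -0.24 to 0.24 and -0.24 to 0.25, and no Myc value of an exposed embryo lay outside the Control range.

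Klf6, a zinc finger factor of the Krüppel-like family, was the 1 gene of the 8 with a lower mean after both drinks on the log2(intensity + 16) scale. Control ran from 1081 through 1807 to 2313. Ethanol ran from 932 through 1643 to 2476, and Nicotine from 605 through 1538 to 2658. The Klf6 groups overlapped, and 5 Nicotine embryos lay below the lowest Control embryo while 2 lay above the highest. The nicotine difference was -0.40 (SE 0.23, interval -0.87 to 0.07, adjusted p 0.859 with limma), and Nicotine was the lower in 8 of 12 equal numbers. With the replicate number as a block its interval was -0.62 to -0.18 (adjusted p 0.0608 with limma). With the set as a block it was -0.61 to -0.19 (adjusted p 0.0696 with limma). The ethanol difference was -0.15 (SE 0.23). The dimmer Klf6 probe, with medians of 33.2, 24.5 and 23.8, differed by -0.28 after nicotine and -0.30 after ethanol (SE 0.18 each). It reached 32 in 6 Control, 5 Ethanol and 2 Nicotine embryos. Because it passed the filter mainly through Control and Ethanol, its differences are a description with no test.

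The genes that end the response differed little between treatments. Dusp1, the MAP kinase phosphatase, ran in Control from 656 through 846 to 1106. It ran in Ethanol from 706 through 869.7 to 1152 and in Nicotine from 581 through 889.9 to 1205. The Dusp1 groups overlapped almost fully, and the differences were 0.05 after ethanol and -0.01 after nicotine (SE 0.11 each). The nicotine interval for Dusp1, -0.23 to 0.20, shows the size left possible by the fit without a block. It was -0.13 to 0.11 with the replicate number as a block and -0.17 to 0.15 with the set as a block. Zfp36 had medians of 143 in Control (109.8 to 207), 162 in Ethanol (105 to 186) and 160.4 in Nicotine (102 to 248), with differences of 0.09 and 0.07 (SE 0.12 each) and overlapping groups.

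**Figure D2:**
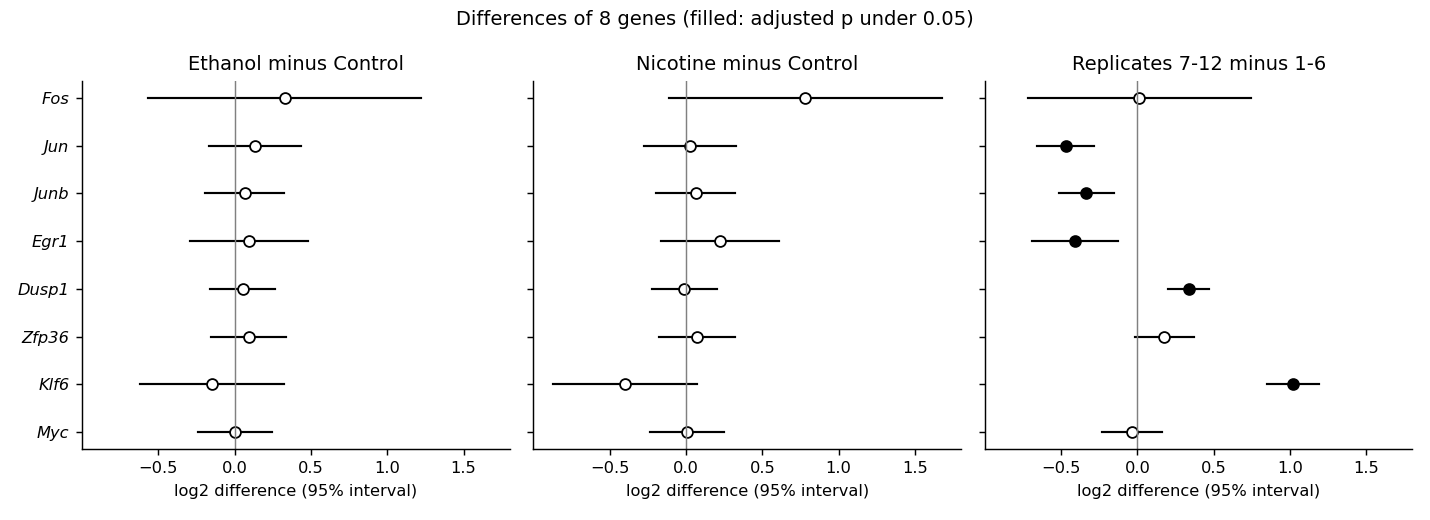
Log2 differences of the 8 tested genes with 95% intervals for ethanol against control, nicotine against control, and replicates 7 to 12 against 1 to 6, filled where the adjusted p was under 0.05. The fits drawn have no block. All their intervals for the treatment comparisons include 0 and the interval of Fos is the widest, while Jun, Junb, Egr1, Dusp1 and Klf6 are filled between the replicate sets.

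Within the replicate sets the treatment differences did not pass either, and the share of all probes called was 0% in each set. In replicates 1 to 6 Klf6 ran from 1081 to 1565 in Control and from 605 to 1338 in Nicotine, a difference of -0.71 (SE 0.15, adjusted p 0.149 with limma), with Nicotine lower in 5 of 6 numbers. In replicates 7 to 12 it ran from 2048 to 2313 in Control and from 1739 to 2658 in Nicotine, a difference of -0.10 (SE 0.10, adjusted p 0.917), with Nicotine lower in 3 of 6. The interaction of nicotine with the set was 0.61 (SE 0.19) and had an adjusted p of 0.445, so a difference between the sets was not called for this gene or for any of the 8, where 0% of all probes passed (0.0118% with the replicate number as a block). At an unadjusted p under 0.05 the nicotine effect by set passed for 6.94% of probes and, of the 8 genes, for Klf6, and the ethanol effect by set for 2.3% of probes and 0 genes. The dimmer Klf6 probe, as a description with no test, gave -0.53 after nicotine in replicates 1 to 6. In 7 to 12, where it stayed under 32 in every embryo, it gave -0.03. Fos differed by 0.32 (SE 0.56) in replicates 1 to 6 and by 1.24 (SE 0.64, adjusted p 0.693) in 7 to 12, with an interaction of 0.92 (SE 0.89). Egr1 differed by 0.36 (SE 0.19) and 0.08 (SE 0.27), respectively. With the replicate number as a block, 0 probes were called after nicotine in either set (limma). The Klf6 interval was then -1.05 to -0.37 in replicates 1 to 6 (adjusted p 0.098) and -0.28 to 0.09 in 7 to 12. The Fos interval was -0.81 to 1.45 in replicates 1 to 6 and 0.03 to 2.45 in 7 to 12 (adjusted p 0.506).

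Between the replicate sets, 5 of the 8 genes were called, where 64.8% of all probes were, so the share was close to that of the array as a whole. Of these, 2 were higher in replicates 7 to 12 (38.6% of probes were) and 3 were lower (26.2% of probes were). At an unadjusted p under 0.05 the genes were 5, against 67.8% of probes. With the replicate number as a block they were 5 again, against 57.8% of probes, 34% higher and 23.7% lower. Klf6 ran from 605 through a median of 1083 to 1565 in replicates 1 to 6 and from 1739 through 2195 to 2658 in 7 to 12. The sets of Klf6 did not overlap, and the difference was 1.02 (SE 0.08, 2.03-fold, adjusted p 4.62e-13). Dusp1 ran from 581 through 750.4 to 974.6 and from 764 through 945 to 1205, an overlapping difference of 0.34 (SE 0.07, adjusted p 3.00e-05). Jun was the most clearly lower, at 217 through 289 to 445 in replicates 1 to 6 and 104 through 194 to 291 in 7 to 12, a difference of -0.47 (SE 0.09, adjusted p 3.45e-05). Egr1 differed by -0.41 (SE 0.14, adjusted p 0.0102) and Junb by -0.33 (SE 0.09, adjusted p 0.00121), both with overlapping sets. These limma fits count embryos of equal number as independent. With the replicate number as a block the adjusted p was 0.0416 for Egr1 and 0.00962 for Junb. Fos (0.01, SE 0.36), Myc (-0.03, SE 0.10) and Zfp36 (0.18, SE 0.09, adjusted p 0.103) were not called. Without Nicotine replicate 1, Control replicate 3 or Nicotine replicate 7 Zfp36 passed, with differences of 0.22, 0.21 and 0.21 and adjusted p-values of 0.0236, 0.0412 and 0.047.

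The probes of Klf6 differed in opposite directions between the sets. The dimmer probe reached 32 in 13 embryos of replicates 1 to 6 and in 0 of 7 to 12, so it passed the filter only through the set where it was high, and its values are a description with no test. It ran from 18.2 through 40.5 to 79.96 in replicates 1 to 6 and from 5.78 through 20.4 to 30.8 in 7 to 12. Its log2 difference was -0.67, against 1.02 for the brighter probe. Opposed probes were also found elsewhere on the array, where the same filter applied: of 2022 genes with at least 2 probes called between the sets, 885 (43.8%) had probes called in both directions. The direction of a gene between the sets is therefore that of its probe. Jun, Egr1, Dusp1, Fos and Zfp36 each had a single probe.

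**Figure D3:**
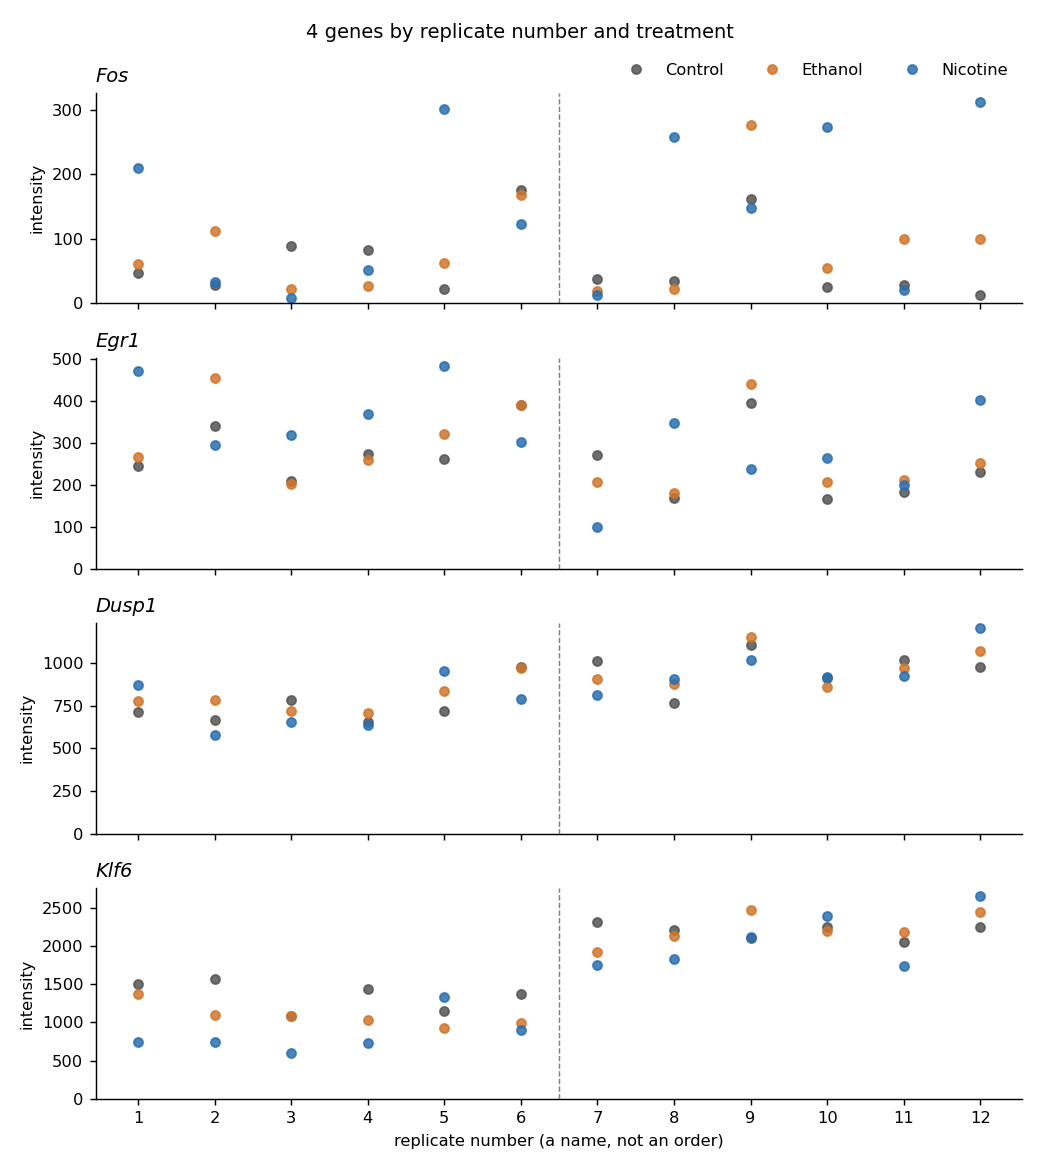
Intensity (linear scale) of Fos, Egr1, Dusp1 and Klf6 by replicate number, with 1 point for each treatment and a dashed line between the sets 1 to 6 and 7 to 12. Klf6 is higher at every number from 7 to 12, and Fos is highest in Nicotine at some numbers and lowest in Nicotine at others.

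Within replicates 1 to 6, the embryos numbered 6 differed from the others in 38.1% of probes. They were compared because earlier results of these data showed them apart, so that share is a description. The fit counts the 3 embryos numbered 6 as independent. Within the sets a median of 48.2% of a probe's variance lay between numbers, so the p-values of this fit are likely too small. Of the 8 genes 3 were called, 2 higher (20.3% of probes were) and 1 lower (17.7% were), and 4 had an unadjusted p under 0.05 (46.7% of probes). Myc was higher by 0.54 (SE 0.15, adjusted p 0.00927), Dusp1 was higher by 0.31 (SE 0.12, adjusted p 0.0499) and Junb was lower, with a log2 difference of -0.48 (SE 0.15, adjusted p 0.0192). Leaving out 1 of the 3 embryos numbered 6 left 0 or 1 of these calls: 1 without that of Control, 0 without that of Ethanol and 1 without that of Nicotine. Fos in the embryos numbered 6 was 176, 168 and 123, with a difference of 1.23 (SE 0.56, adjusted p 0.0957) from the others, whose values ran from 8.02 to 302.

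What set Fos apart was its spread between embryos. After group and set means were removed, the SD of its log2 values was 1.16, above that of 99.8% of the tested probes and of 99.7% of the 1000 probes of most similar mean level. The median SD over the tested probes was 0.22. Its highest and lowest embryos differed 38.9-fold. Egr1 followed with an SD of 0.45, above 94.4% of probes, and was the other gene of the 8 in the upper 10%. The remaining 6 genes lay between Dusp1 (SD 0.20, above 39.9% of probes) and Myc (SD 0.31, above 76.7%). With a pseudocount of 1 in place of 16, Egr1 left the upper 10% and Fos remained above 99.8%. These are descriptions with no test.

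The spread was also described within each treatment. The SD of Fos within the sets was 0.88 in Control, 1.02 in Ethanol and 1.49 in Nicotine, or 1.39 in Nicotine without replicate 3. For Jun it was 0.20, 0.24 and 0.39, for Egr1 0.39, 0.42 and 0.51, and for Klf6 0.16, 0.16 and 0.33. Nicotine replicate 3, which also had the lowest Klf6 of all embryos (605), was not left out for genes other than Fos. The SD was larger in Nicotine than in Control for 7 of the 8 genes, Myc being the exception at 0.16 against 0.42, and the median ratio was 1.64. Over all tested probes 57.7% had the larger SD in Nicotine, with a median ratio of 1.07. Ethanol exceeded Control for 5 of the 8 genes and for 42.2% of probes. These genes share their embryos, so the counts are not independent, and no test was made.

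Embryos with much Fos also had more of some of the other genes. Correlations were taken within each set of 18 embryos after treatment means were removed, for 28 pairs of genes in each set, with permutation tests of 100000 resamples adjusted over the 56 relations. All permutation tests here count embryos of equal number as independent, so their p-values may be too small. The share of variance within the sets that lay between numbers was 65.0% for Dusp1, 43.0% for Junb and 40.9% for Fos. It was 40.7% for Egr1 and 33.1% for Zfp36, beside a median of 48.2% over the tested probes. In replicates 1 to 6, Fos and Dusp1 had a Pearson r of 0.84 (adjusted permutation p 0.00644) and a Spearman rho of 0.79 (0.0195). Junb and Zfp36 had an r of 0.78 (adjusted permutation p 0.0171) and a rho of 0.77 (0.0195). In replicates 7 to 12, Fos and Egr1 had an r of 0.85 (adjusted permutation p 0.00224) and a rho of 0.82 (0.00392), and Egr1 and Dusp1 an r of 0.77 (0.0157) and a rho of 0.72 (0.0195). These 4 were the pairs called, 2 in each set and all positive. The other set gave 0.64 for Fos and Egr1 and 0.59 for Egr1 and Dusp1 in replicates 1 to 6, and 0.63 for Fos and Dusp1 and 0.30 for Junb and Zfp36 in 7 to 12, none of them called, and the difference between the sets was not tested.

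The relations were recomputed without some embryos. Without the 2 embryos farthest from the median of the first gene, r was 0.84 for Fos and Dusp1 (adjusted permutation p 0.0112), 0.79 for Fos and Egr1 (0.0142), 0.70 for Egr1 and Dusp1 (0.029) and 0.68 for Junb and Zfp36, whose adjusted permutation p then rose to 0.11. Without the embryos numbered 6, the r of Fos and Dusp1 was 0.79 with an adjusted permutation p of 0.0911, so that relation was no longer called, while Junb and Zfp36 kept 0.84 (0.0174). Without Nicotine replicate 3, an alternative added after seeing the data, r was 0.88 for Fos and Dusp1 (adjusted permutation p 0.00252) and 0.78 for Junb and Zfp36 (0.0218). With means of the replicate number removed as well, 9 pairs were called in replicates 1 to 6 and 5 in 7 to 12. Embryos were still permuted within treatments only, which does not allow for the number means removed, so these counts are likely too high.

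**Figure D4:**
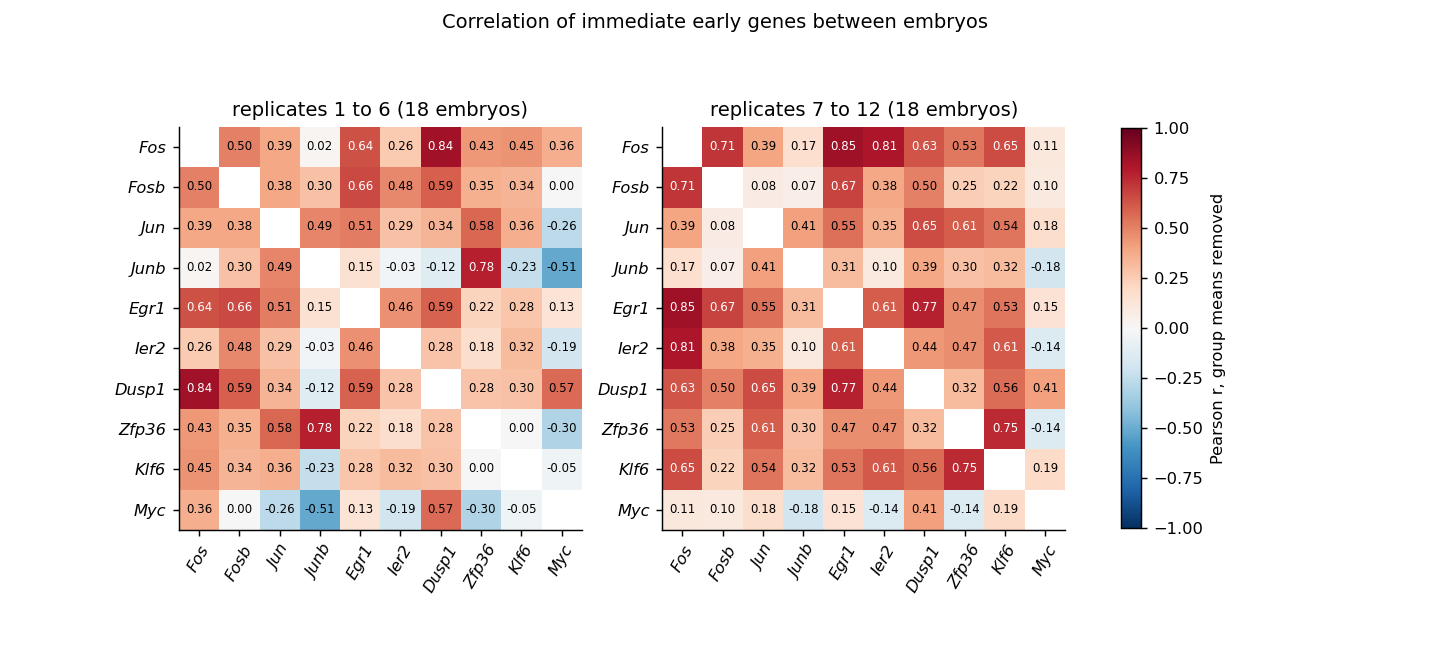
Pearson r between the 10 genes over the 18 embryos of each replicate set, treatment means removed, with colour running from negative to positive r. Fos and Dusp1 reach 0.84 in replicates 1 to 6 and Fos and Egr1 0.85 in replicates 7 to 12, and Myc has r near or below 0 with several genes.

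The other tested genes were placed in the order of r with Fos among 16926 other probes. In replicates 1 to 6 Dusp1 ranked 1, Egr1 114, Klf6 1071, Zfp36 1236 and Jun 1742. In replicates 7 to 12 Egr1 ranked 1, Klf6 99, Dusp1 136, Zfp36 465 and Jun 1405. Junb, at r of 0.02 and 0.17, ranked 8430 and 4877, and Myc 2098 and 6071. The median r of all probes with Fos was 0.02 and -0.003. With the dim genes Fosb and Ier2 added, an extension chosen after the data were seen, 90 relations gave 3 called pairs in replicates 1 to 6 and 5 in 7 to 12. In replicates 7 to 12 Fos had an r of 0.81 with Ier2 and 0.71 with Fosb (adjusted permutation p 0.0217 each), and Fosb had an r with Egr1 of 0.66 (0.0368) in replicates 1 to 6 and 0.67 (0.0368) in 7 to 12.

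**Figure D5:**
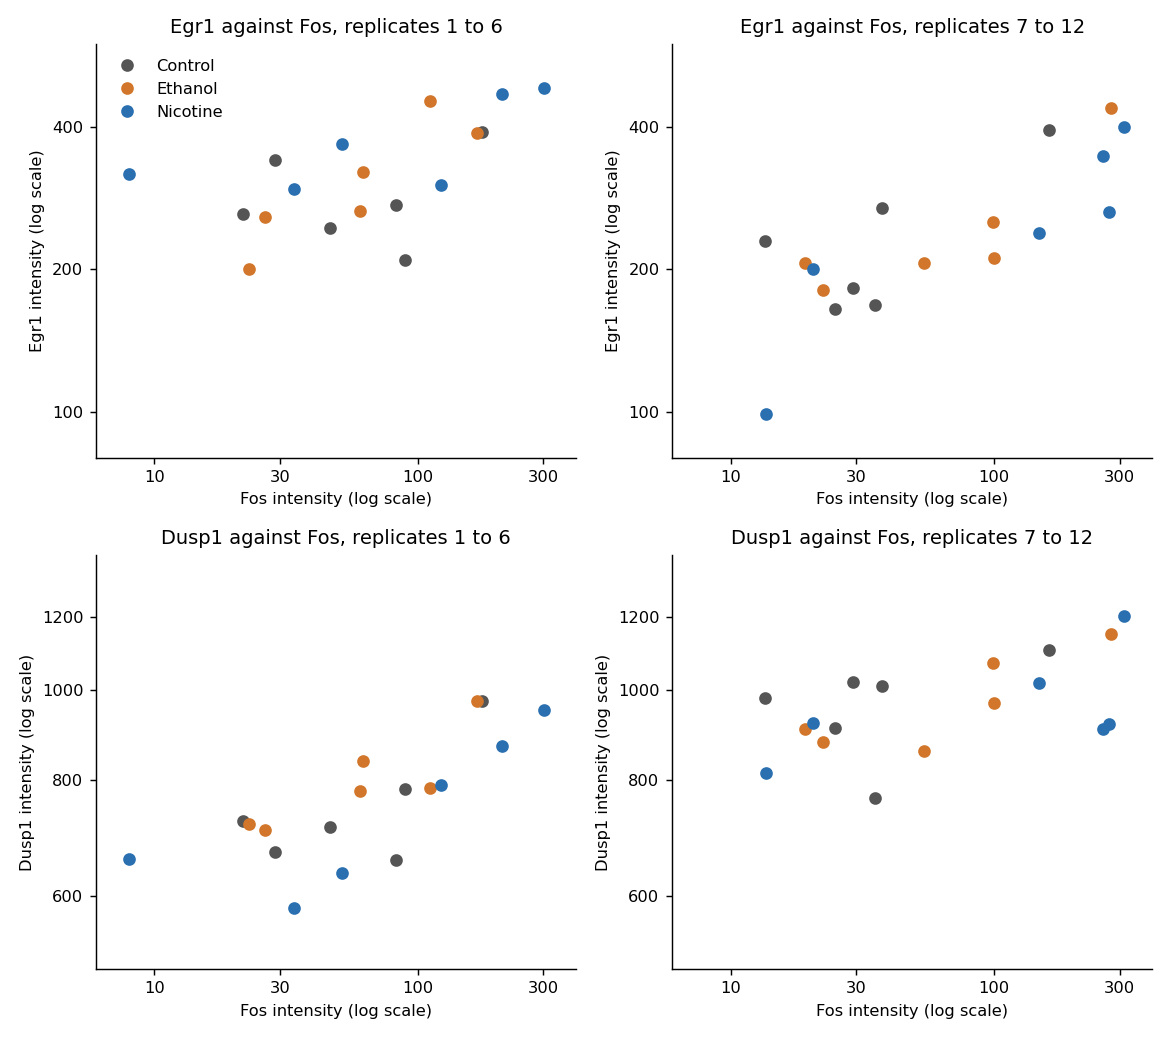
Intensity of Egr1 (upper panels) and Dusp1 (lower panels) against Fos in each embryo, both axes logarithmic, for replicates 1 to 6 (left) and 7 to 12 (right), coloured by treatment. Embryos with more Fos tend to have more Egr1 and Dusp1, and Nicotine embryos are at both ends of the Fos axis, at 8.02 and 312.

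The level of Fos was set against the summed intensity of 10 lists, the 9 marker lists and the heat shock genes, in both sets, as 20 relations. No relation was called, and the smallest adjusted permutation p was 0.554. It belonged to neural tube markers in replicates 1 to 6 (r -0.50, rho -0.49, and -0.56 without the 2 farthest embryos) and, in replicates 7 to 12, to somite markers (r -0.48, rho -0.53, and -0.37 without them) and maternal decidua markers (r 0.47, rho 0.45, and 0.51 without them). Heart markers gave 0.42 and 0.45 (-0.14 and 0.50 without the 2 farthest embryos), heat shock genes -0.27 and -0.37, visceral yolk sac markers 0.32 and -0.05, and macrophage markers 0.08 and 0.11.

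The genes whose pattern was most like that of the 8 tested genes were named by the mean r over the 36 embryos, treatment by set means removed, among 9675 other genes. They were Dhh (0.44), a hedgehog ligand, Klf2 (0.43), a shear-responsive endothelial transcription factor, Tent5c (0.42), Tnc (0.42), which encodes tenascin C, Cish (0.42), an inhibitor of cytokine signalling, Acss1 (0.40), Lyl1 (0.40), a transcription factor of blood and endothelium, Rab3il1 (0.40), Nkx2-6 (0.40) and Exoc3l (0.40). Each was most like Jun, Dusp1 or Zfp36 and least like Myc or Junb, with Klf2 at 0.69 for Jun and 0.08 for Myc and Cish at 0.70 for Dusp1. Klf2 is also on the list of further immediate early genes described below. The gene most like Fos alone was Ccn1, which encodes a matricellular protein and is itself an immediate early gene, with an r of 0.68. It is named after its value was seen.

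Of 55 further immediate early genes, 54 had a probe and 38 were tested. None was called after ethanol, after nicotine or between the drinks (limma, adjusted p under 0.05), where 0%, 0.00591% and 0% of probes were. At an unadjusted p under 0.05 the genes numbered 1, 4 and 1 of 38, against 1.05%, 6.51% and 4.93% of probes. Their median differences were 0.03 after ethanol, with 24 of 38 above 0, and 0.03 after nicotine, with 20 of 38 above 0. Dusp5, a phosphatase specific for ERK, differed most clearly, by 0.43 after nicotine (SE 0.10, adjusted p 0.216). With the replicate number as a block it was the 1 gene of the 38 called after nicotine (adjusted p 0.0176 with limma). In that fit 1.15% of all probes were called. Between ethanol and nicotine Dusp5 differed by -0.32 (SE 0.10, adjusted p 0.464). Jund, the AP-1 gene that is expressed most steadily, differed by -0.27 after nicotine (SE 0.11, adjusted p 0.591) and by -0.17 after ethanol (SE 0.11). Ppp1r15a, a stress-induced regulator of translation, differed by 0.21 after ethanol (SE 0.10, adjusted p 1), and Nfkbia, the inhibitor of NF-κB, by 0.19 between ethanol and nicotine (SE 0.10).

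Between the sets 25 of the 38 were called, 14 higher and 11 lower in replicates 7 to 12, where 64.8% of all probes were called (38.6% higher, 26.2% lower), so the share was close to that of the array. Plk3 (0.68), a stress-responsive kinase gene, the nuclear receptor gene Nr4a2 (0.55), Ier5l (0.52) and Ccn2 (0.52, its further probe -0.06) led those that rose. Rhob (-1.31), a small GTPase gene, Dusp4 (-1.18, with further probes near 0), Ccn1 (-1.11, with further probes on both sides of 0) and the kinase gene Pim1 (-0.50, its further probe -0.04) led those that fell. Several of these genes thus had probes that disagreed.

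The regulators that act upstream showed no called difference between treatments: 14 of 27 were tested, 7 had no probe and were not analysed here, and 0 of 14 were called in each treatment comparison (limma, with 0 at an unadjusted p under 0.05). For ethanol, nicotine and ethanol against nicotine, 0%, 0.00591% and 0% of all probes were called. An unadjusted p under 0.05 was found for 1.05%, 6.51% and 4.93%. Among the closest to a call, Crebbp and Ep300, the coactivator acetyltransferases of CREB, differed by -0.28 (SE 0.19, adjusted p 0.942) and -0.18 (SE 0.13, adjusted p 0.952) after nicotine. Map2k4, a kinase of the JNK pathway, differed by 0.13 after ethanol and Elk4, a partner of serum response factor, by 0.07. Between ethanol and nicotine, Ep300 differed by 0.21 (SE 0.13) and Crem, a factor of the CREB family, by 0.20 (SE 0.10, adjusted p 0.9998). Between the sets 9 of 14 were higher and 3 lower in replicates 7 to 12, where 38.6% and 26.2% of all probes were. Crebbp (0.74), Ep300 (0.51), Rps6ka3 (0.31) and the MAP kinase kinase Map2k2 (0.30, its further probe 0.00) were higher, and its paralogue Map2k1 (-1.15), Mapkapk2 (-0.36) and Srf (-0.23, its further probe -0.65), the serum response factor itself, were lower.

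Of 10 heat shock response genes, 8 were tested and 0 were called between treatments (limma, with 0, 0 and 1 at an unadjusted p under 0.05). Of all probes 0%, 0.00591% and 0% were called, and 1.05%, 6.51% and 4.93% had an unadjusted p under 0.05. The chaperone gene Hsph1 differed by 0.16 after nicotine (SE 0.08, adjusted p 0.797) and by -0.20 between ethanol and nicotine, and Dnajb1 by 0.07 after nicotine. Bag3, a co-chaperone, differed by 0.06 after ethanol and Hspb1 by -0.13. Between the sets 1 of the 8 was higher in replicates 7 to 12, Dnajb1 (0.10), and 4 were lower, Hspe1 (-1.40), Hsp90aa1 (-1.13, its further probe -0.03), Hspd1 (-0.70, its further probe 1.01) and Hsph1 (-0.26), where 64.8% of all probes were called, 38.6% higher and 26.2% lower.

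The markers of other cell types were set beside these results, and their part in them was not tested. After nicotine Fcer1g of macrophages differed by -0.41 (SE 0.19, adjusted p 0.717), Pecam1 of endothelium by -0.41 (SE 0.26) and Tie1 by -0.31 (SE 0.18), while Tcf15 of somites differed by 0.48 (SE 0.27). Between ethanol and nicotine Cdh5 of endothelium differed by 0.41 (SE 0.20, adjusted p 0.9998). After ethanol Prl2c2 of trophoblast differed by -1.90 (SE 0.76, adjusted p 1), Ttr of the yolk sac by 0.80 (SE 0.92) and Tcf15 by 0.41 (SE 0.27). Summed macrophage markers ran from 95.1 to 180 in Control, 70.7 to 181 in Ethanol and 63.6 to 152 in Nicotine, and summed endothelial markers from 211 to 816, 207 to 787 and 186 to 814. Between the sets 3 of the 22 markers were higher in replicates 7 to 12, Sox2 (1.004, its further probe -0.87), Pecam1 (0.81, its further probe 0.04) and Tcf15 (0.64), and 3 were lower, Prl8a2 (-0.92), Nes (-0.55, its further probe 0.03) and Gata1 (-0.36). Of all probes 64.8% were called, 38.6% higher and 26.2% lower, a larger share than of the markers; that difference was not tested.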

How the data were processed

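RNA of 36 whole embryos was measured on an Illumina mouse bead array, in 3 groups of 12 named by the sample labels. The authors' deposited values give 1 linear intensity for each probe in each embryo. The submitters' processing notes name GenomeStudio 1.9.0, and how background was corrected and arrays were normalized is not given in the sources used here. By the values, all arrays share 1 mean (357.7) and nearly the same median. A further deposited table has 72 columns whose names match no label, and these were not used. Symbols came from the platform annotation, where 34885 probes had 1 symbol, 18 several and 10378 none.

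From the intensity, log2(intensity + 16) was computed, which understates the change of dim probes. Probes at 32 or more on at least 12 of 36 arrays were kept. Groups were compared with limma 3.58.1 in R 4.3.3 (lmFit and eBayes, two-sided, all 36 arrays, 1 mean per group), with Benjamini-Hochberg adjustment across all 16927 probes that were kept and a threshold of 0.05. The replicate sets were compared with the treatment as a covariate. Correlations were tested by permuting single embryos within treatments, with no allowance for equal numbers (numpy 2.4.6, scipy 1.17.1, pandas 2.3.3). Steps were tested on simulated data. The simulated embryos were independent, so those tests do not cover the correlation between embryos of equal number. The number of arrays limits the precision.

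Replicate numbers occur in every group. After group means were removed, embryos of equal number correlated above 0.1 in 36 of 36 pairs (lowest 0.243, mean 0.589, against -0.05 for unequal numbers). Set means were not removed, and embryos of equal number always share a set, so this check cannot separate the number from the set. Within the sets a median of 48.2% of a probe's variance lay between numbers, and no reference share was computed. Pairing by number was thus an assumption that the labels do not give. A fit with the number as a block was the alternative. Other alternatives were the set as a block, the sets alone, leaving out embryos, other pseudocounts and filters, a repeated quantile normalization, and the genes' other probes.

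The 10 genes and all gene lists were chosen with earlier results of these data known. So were the replicate sets and the comparison of the embryos numbered 6. Named genes are every member, the 2 genes of smallest p of a list in each treatment comparison with up to 6 past the threshold, up to 4 higher and 4 lower of a list between the sets, and the 10 genes with the highest mean r with the tested genes.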

Additional observations from a re-analysis of the deposited data

How the results depend on the processing

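For the 8 genes, 0 calls in every treatment comparison held under all alternatives run, and the count of 5 between the sets was 4 to 5 under the other settings (4 with an intensity of 32 required on all arrays, where fewer genes were tested) and 5 to 6 with single embryos left out. The replicate block moved the probes called after nicotine from 1 to 194, between ethanol and nicotine from 0 to 69, and for the nicotine effect by set from 0 to 2. For Klf6 after nicotine it gave the same difference with an SE of 0.11 and an adjusted p of 0.0608, and the set as a block gave an adjusted p of 0.0696. The block changed no call of the 8 genes. After nicotine 3 probes were called with the set as a block, and 0 without the embryos numbered 6, in each set alone or with no filter. The called gene pairs of replicates 1 to 6 went from 2 to 1 without the embryos numbered 6 and to 9 with the block. Those of replicates 7 to 12 went from 2 to 5 with the block and to 5 with all 10 genes. The pair counts with the block are likely too high, since the permutation did not allow for the number means removed. The genes in the upper 10% of spread went from 2 to 1 with a pseudocount of 1. The cause of these shifts was not tested.

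Leaving out 1 embryo at a time, probes called ranged from 0 to 7 after nicotine and from 0 to 12 between ethanol and nicotine, the highest in both without Nicotine replicate 5. For the embryos numbered 6, probes ranged from 4111 to 5920 and genes from 0 to 1, and the Dusp1 call was also lost with a pseudocount of 1 (adjusted p 0.0536) and with no filter (0.0963).

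Under these settings the tested differences that changed sign did not pass the threshold, and the further Klf6 probe gave -0.67 between the sets, with no test since it passed the filter only through replicates 1 to 6. After ethanol they were Junb's further probe (-0.16), Klf6 in replicates 7 to 12 (0.017), and Myc in replicates 1 to 6 (-0.0505), with a pseudocount of 64 (-0.0058), with quantile normalization (-0.0049) and by its further probe (-0.0092). After nicotine they were Jun (-0.0567), Junb (-0.11) and Zfp36 (-0.0623) in replicates 7 to 12, Junb's further probe (-0.0717), Dusp1 without the embryos numbered 6 (0.016), and Myc in replicates 1 to 6 (-0.0775) and with a pseudocount of 64 (-0.0081). Between ethanol and nicotine they were Junb without the embryos numbered 6 (-0.0056), in replicates 1 to 6 (-0.22), with a pseudocount of 64 (-0.0111), with quantile normalization (-0.0067) and by its further probe (-0.0892), Egr1 in replicates 7 to 12 (0.0005), Zfp36 in replicates 1 to 6 (-0.10), Klf6's further probe (-0.0184), and Myc in replicates 1 to 6 (0.027) and with a pseudocount of 64 (0.0024). Between the sets they were Fos with a pseudocount of 1 (-0.0234), Junb's further probe (0.0136) and Myc without the embryos numbered 6 (0.0574). The nicotine effect by set of Dusp1 became -0.0394 without the embryos numbered 6.

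Leaving out 1 embryo at a time, signs also changed for Dusp1 (-0.0568 to 0.037), Jun (-0.057 to 0.12), Junb (-0.0184 to 0.12) and Myc (-0.0638 to 0.0677) after nicotine, Myc after ethanol (-0.0668 to 0.0647), Junb (-0.0542 to 0.0843), Zfp36 (-0.0268 to 0.0791) and Myc (-0.0503 to 0.0227) between ethanol and nicotine, Fos (-0.125 to 0.133) and Myc (-0.0701 to 0.013) between the sets, and Klf6 for the embryos numbered 6 (-0.0506 to 0.10). Dim probes limit the depth: values of Fosb and Ier2 lie mostly under the minimum of 32.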
